A study of Mus musculus with 4 samples.

Results

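Glycolysis splits glucose into pyruvate, and the pentose phosphate pathway branches off it to make NADPH and ribose for nucleotides. The genes described here are 40 members of these pathways, listed by name: 4 carriers of glucose or lactate, 20 enzymes of the glycolysis steps and their control, 10 genes that set the fate of pyruvate or carry electrons from the cytosol, and 6 pentose phosphate enzymes. Of the 40, 36 had a probe set with 1 gene symbol, out of 18194 such genes on the array, and all 36 were bright enough to test, against 10873 genes tested in all. Gpi1, Eno1, Mpc2 and G6pdx were not analysed here. A gene is given by its brightest probe set, which is a group of short probes for 1 transcript.

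RNA came from group 2 innate lymphoid cells (ILC2), tissue lymphocytes that make type 2 cytokines without a rearranged antigen receptor. The Ets1-deleted group had 2 arrays, from C57BL/6 mice in which Ets1, the gene of an ETS family transcription factor, was deleted, and the control group had 2 arrays, from littermates of the same strain. Cells of both groups had been grown for 2 weeks on OP9-DL1 stroma, which presents a Notch ligand, supplied with the cytokines IL-7 and IL-33. Cells positive for the costimulator ICOS were then sorted. The allele and any Cre driver, and the age and sex of the animals, are not stated in the labels, and nothing says whether an array stands for 1 animal or for a pool.

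Lymphocytes that are stimulated commonly take up more glucose and turn much of it into lactate even when oxygen is present. Hexokinase traps glucose inside the cell, phosphofructokinase commits it to glycolysis, and pyruvate then either becomes lactate or enters the mitochondrion, where pyruvate dehydrogenase passes it to the citric acid cycle. Pyruvate dehydrogenase kinases close that entry by phosphorylating the enzyme. Several of these genes are textbook targets of the hypoxia-inducible factor.

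Ets1 itself read 138 and 180.2 intensity units in the Ets1-deleted arrays, against 1272 and 1231 in the controls, a log2 difference of -2.99 ± 0.13 (limma, adjusted p = 2.17e-08; SE, n = 2 per group here and throughout). The labels do not state where its probes lie relative to the deleted stretch. All 11 measured ILC2 markers of 12 listed reached the dim limit of 97.4 intensity units, the median over all probe sets, in at least 1 array, and Gata3, the factor ILC2 depend on, read 3032 and 2828 in the Ets1-deleted arrays and 2807 and 2741 in the controls. The ILC2 list itself moved with the genotype: 6 of the 11 genes were higher, among them Thy1 (1.91) and Rora (1.29), and 3 were lower, Klrg1 (-1.60), Ptgdr2 (-0.45) and Icos (-0.38). The median log2 difference of that list was 0.69, and its summed intensity was 29325 and 26889.5 in the Ets1-deleted arrays and 23774 and 21557 in the controls. Over all genes tested, 13.9% passed as higher and 12.8% as lower, the shares to set beside the counts of each marker list. Markers of other cells moved too. The summed intensity of 10 T cell markers was 6382 and 6635 in the Ets1-deleted arrays and 3378 and 3479 in the controls. Of 6 tested genes 4 were higher, while Cd4, Cd5, Cd8a and Cd8b1 stayed under the dim limit in every array. Cd3e (102.8 and 81.6 in the controls), counted as higher, entered the test through its Ets1-deleted values, so its call carries no weight of its own. Cd247, also higher, had 1 control under the limit (96.4). For 12 myeloid markers the sums were 4314 and 4275 in the Ets1-deleted arrays and 2283 and 2513 in the controls. Of the tested genes 9 of 9 were higher, and Cd14 was under the limit throughout. Adgre1 (73.0 and 84.7 in the controls) entered the test through its Ets1-deleted values, so its call carries no weight of its own. Itgam (-0.03) and Elane (0.18) were too dim to test. For 12 mast cell and basophil markers the sums were 4245 and 4071 in the Ets1-deleted arrays and 2506 and 2516 in the controls. Of 8 tested genes 6 were higher, and Fcer1a and Tpsab1 were under the limit throughout. Cpa3 (85.9 and 78.3 in the controls) and Hdc (91.5 and 90.5) entered the test through their Ets1-deleted values. Those calls carry no weight of their own. Mcpt4 (0.56) and Ms4a2 (0.53) were too dim to test. For 10 stromal markers the sums were 2203 and 2336 in the Ets1-deleted arrays and 2796 and 2585 in the controls, with 0 of 7 tested genes higher and 2 lower, Pdgfrb (-0.85) and Cxcl12 (-0.41), and with Dcn, Lum and Dll1 under the limit throughout. The part of these cell types in the differences below was not tested. In bulk RNA, fewer cells of a type and less RNA per cell cannot be told apart.

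The greatest differences among the members were those of Hk2, Slc16a3, Slc2a1 and Pfkp. Hk2 was 2.46-fold higher in the Ets1-deleted arrays, Slc16a3 was 1.76-fold higher, and Slc2a1 and Pfkp were each 1.73-fold higher. Eno2 (1.68-fold) and Hk3 (1.66-fold) came close behind. The carriers Slc2a3 and Slc16a1 differed by -0.30 and 0.11 on the log2 scale. In all, 12 of the 36 measured members rose and 1, Pdk2, fell at an adjusted p of 0.05 (limma, Benjamini-Hochberg over all 10873 genes). Pdk2 entered the test through its controls alone, so that call carries no weight of its own. Over all genes tested, 13.9% passed as higher and 12.8% as lower, 26.7% together. The median log2 difference was 0.21 over the 36 members and -0.00 over all genes tested. The groups did not overlap in 30 of the 36 members, 22 with the Ets1-deleted arrays above and 8 with them below, while 62.6% of all genes tested did not overlap, 30.9% with the Ets1-deleted arrays above and 31.7% with them below. At an unadjusted p of 0.05 (limma), 16 members were higher and 3 lower, against 2078 higher and 2020 lower over all 10873 genes. With each gene's own variance in place of limma's shared one, 0 members passed the adjusted threshold. In that fit 12 members were higher and 1 lower at an unadjusted p under 0.05, against 1349 higher and 1258 lower over all genes.

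**Figure D1:**
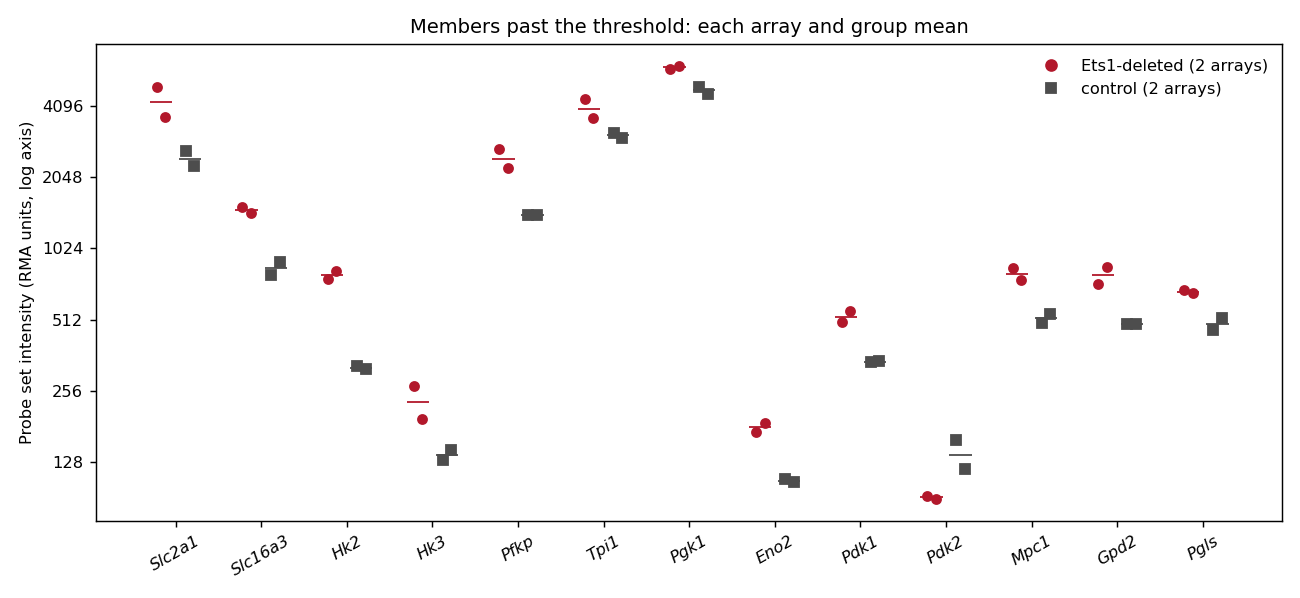
Probe set intensity (RMA units, log axis) of the 13 members past the threshold in each array, with Ets1-deleted arrays as red circles, control arrays as grey squares and the group mean (of log2 values) as a line. The Ets1-deleted points lie above the control points in 12 genes and below them in Pdk2, whose Ets1-deleted values lie under the dim limit. Levels are not comparable between genes.

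The regions around the transcription start of the 4 called members with the greatest differences are shown. They were chosen by the size of the difference, and 3 of them carry a letter pattern discussed below. Each sequence is the RefSeq promoter window of build GRCm38.p6, 5′ to 3′ on the gene's strand, from 250 bases before to 50 bases after the start, and capitals mark the matches.
Hk2 (chr6:82774405-82774704, minus strand): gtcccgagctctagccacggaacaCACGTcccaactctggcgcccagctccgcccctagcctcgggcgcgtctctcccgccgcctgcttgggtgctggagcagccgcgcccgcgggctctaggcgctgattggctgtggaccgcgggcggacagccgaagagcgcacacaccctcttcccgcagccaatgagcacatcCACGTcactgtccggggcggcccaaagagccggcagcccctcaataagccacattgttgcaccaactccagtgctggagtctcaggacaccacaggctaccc
Slc16a3 (chr11:120948817-120949116, plus strand): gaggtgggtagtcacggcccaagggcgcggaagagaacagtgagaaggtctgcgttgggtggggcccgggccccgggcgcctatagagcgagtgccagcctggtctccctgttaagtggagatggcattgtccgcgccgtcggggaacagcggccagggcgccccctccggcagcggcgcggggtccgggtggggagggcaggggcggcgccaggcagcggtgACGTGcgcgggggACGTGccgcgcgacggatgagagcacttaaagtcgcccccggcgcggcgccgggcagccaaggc
Slc2a1 (chr4:119108495-119108794, plus strand): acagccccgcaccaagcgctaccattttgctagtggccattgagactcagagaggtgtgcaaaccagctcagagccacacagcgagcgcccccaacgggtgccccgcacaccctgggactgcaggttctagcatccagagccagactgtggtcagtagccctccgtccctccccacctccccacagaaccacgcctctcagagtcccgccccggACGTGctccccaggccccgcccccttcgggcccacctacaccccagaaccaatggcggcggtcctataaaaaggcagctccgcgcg
Pfkp (chr13:6648722-6649021, minus strand): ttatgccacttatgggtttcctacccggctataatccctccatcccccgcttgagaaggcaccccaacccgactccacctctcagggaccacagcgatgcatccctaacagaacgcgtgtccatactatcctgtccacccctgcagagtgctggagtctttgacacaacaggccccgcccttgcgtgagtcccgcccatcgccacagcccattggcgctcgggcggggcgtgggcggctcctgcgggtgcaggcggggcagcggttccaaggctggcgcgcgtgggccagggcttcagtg

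The capitals are ACGTG, a form of the core letters of the hypoxia response element, read on both strands (CACGT on the other). The form GCGTG was not searched, so the matches and shares below leave it out. The other 2 patterns searched were CACGTG, the E box, which contains ACGTG, and CCGGAA, the ETS core with its flank; neither was found in these 4 windows. Counted from the transcription start, the match begins at position -36 in Slc2a1. The matches begin at -27 and -14 in Slc16a3 and at -226 and -52 in Hk2. The Pfkp window has no ACGTG, though it holds GCGTG. Of the 39 members with a window (Slc2a3 has none), 21 (53.8%) had ACGTG in at least 1 window. The share was 30.1% of the 8831 tested genes with a window and 21.8% of all 27025 genes with one. The 39 include Gpi1, Eno1, Mpc2 and G6pdx, which were not measured. Genes with more windows have more room for a match. Counted by window, ACGTG was in 43.1% for the members, 26.0% for the tested genes and 19.6% for all genes. Among the members, 6 of the 12 that rose had it, and so did 14 of the 23 measured members with a window that did not rise. CACGTG was in the windows of 6 of the 39 members (15.4%) and 12.0% of the tested genes, and CCGGAA in those of 8 members (20.5%) and 32.6% of the tested genes. Mpc1 was the only member among the 12 that rose with CCGGAA in its window. A letter match is a description of sequence and shows no binding.

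Among the carriers, 2 of 4 rose and 0 fell (limma), against 13.9% higher and 12.8% lower over all genes. At an unadjusted p of 0.05 in limma, 2 carriers were higher and 1 lower. Slc2a1 encodes GLUT1, the main glucose carrier of stimulated lymphocytes. It read 4929 and 3673 in the Ets1-deleted arrays and 2632 and 2289.8 in the controls, a log2 difference of 0.79 ± 0.14 (1.73-fold, adjusted p = 0.00152). Both Ets1-deleted arrays lay above both controls, on each of its 3 probe sets, although these gave unequal sizes (0.37 to 0.79). Slc2a3, which encodes the high-affinity carrier GLUT3, read 893 and 874 in the Ets1-deleted arrays and 984 and 1209 in the controls (-0.30 ± 0.12, adjusted p = 0.0927 with limma). It passed as lower without control replicate 1 (-0.45, adjusted p = 0.0388), while its other 3 probe sets gave -0.32, 0.04 and -0.00. Its brightest probe set is of a kind (s_at) that can also bind related transcripts. The difference between Slc2a1 and Slc2a3 was not tested.

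Slc16a3 encodes MCT4, a lactate exporter of highly glycolytic cells, and read 1532 and 1443 in the Ets1-deleted arrays against 794 and 897 in the controls. That is a log2 difference of 0.82 ± 0.11 (1.76-fold, limma, adjusted p = 0.000218). Slc16a1, the gene of the broadly used lactate and pyruvate carrier MCT1, read 786 and 744 in the Ets1-deleted arrays and 731 and 685 in the controls. Its difference was 0.11, with a 95% interval from -0.13 to 0.35 (limma).

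At the hexokinase step, Hk2 had the greatest difference of the 36 members and stood at place 188 from the top of all 10873 genes. Hk2 is the inducible hexokinase that sits on mitochondria. It read 763 and 819 in the Ets1-deleted arrays and 326 and 316 in the controls, a log2 difference of 1.30 ± 0.11 (limma, adjusted p = 3.4e-06), and the arrays of each group lay close together. Hk3, an isoform best known from myeloid cells, read 269 and 195 in the Ets1-deleted arrays and 131 and 144 in the controls (0.73 ± 0.15, limma adjusted p = 0.00281). The Ets1-deleted arrays of Hk3 disagreed with each other more than the controls did, and without replicate 1 of that group the difference was 0.50, against 0.97 without replicate 2. Its brightest probe set is of a kind (x_at) that can also bind other transcripts, and the other one gave 0.40. Of the 12 measured myeloid markers, 9 were higher in the same arrays, among them Adgre1, whose call carries no weight. Itgam (-0.03), Cd14 (0.11) and Elane (0.18) were too dim to test. The part of myeloid cells in the Hk3 difference was not tested.

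Hk1, the constitutive isoform, read 721 and 665 in the Ets1-deleted arrays against 527 and 576 in the controls, a difference of 0.33 ± 0.11 at the edge of the threshold (limma, adjusted p = 0.0504). Its second probe set gave -0.03. Median centring (adjusted p = 0.0408), the stricter filter (0.0483) and a robust variance (0.0498) each put it past the threshold in limma. Within each array, the log2 ratio of Hk2 to Hk1 was 0.08 and 0.30 in the Ets1-deleted arrays and -0.69 and -0.87 in the controls. This ratio shows unequal change between the isoforms and says nothing of which transcript is the more abundant.

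Of the 3 phosphofructokinase genes, which encode the enzyme of the committed step, Pfkp passed the threshold and the other 2 did not, though the difference between them was not tested. The platelet-type isoform Pfkp read 2695 and 2236 in the Ets1-deleted arrays and 1421 and 1416 in the controls (0.79 ± 0.12, 1.73-fold, limma adjusted p = 0.000413). All 3 of its probe sets were higher, by 0.42 to 0.88. The liver-type Pfkl differed by 0.25 (95% interval 0.02 to 0.49, adjusted p = 0.107) and the muscle-type Pfkm by -0.10 (-0.34 to 0.15, adjusted p = 0.576) in limma. The within-array log2 ratio of Pfkp to Pfkl was 1.11 and 0.81 in the Ets1-deleted arrays and 0.42 and 0.43 in the controls. The bifunctional enzymes that set the level of the sugar bisphosphate that activates phosphofructokinase did not pass the threshold. Pfkfb3 read 197 and 192 in the Ets1-deleted arrays and 223 and 237 in the controls (-0.24, adjusted p = 0.131), and Pfkfb2 and Pfkfb4 differed by -0.10 and 0.15 (limma). A dimmer Pfkfb2 probe set gave -0.38 and passed as lower when each probe set was tested on its own (limma, adjusted p = 0.0300).

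From aldolase to pyruvate kinase, 3 genes passed the threshold: Eno2, Tpi1 and Pgk1. Of the 18 measured genes of the glycolysis steps, hexokinases and phosphofructokinases included, 6 rose and 0 fell, with a median difference of 0.24. Over all genes, 13.9% were higher and 12.8% lower. At an unadjusted p of 0.05, 8 of the 18 were higher and 1 lower (limma). Tpi1, which interconverts the triose phosphates, read 4372 and 3651 in the Ets1-deleted arrays and 3153 and 3005 in the controls (0.38 ± 0.12, limma adjusted p = 0.0376). All 3 Tpi1 probe sets were higher, by 0.38 to 0.57. Pgk1, which makes the first ATP of the pathway, read 5861 and 6067 in the Ets1-deleted arrays and 4945 and 4594 in the controls (0.32 ± 0.11, limma adjusted p = 0.0485). Its 3 probe sets gave 0.26 to 0.81. Both calls were near the threshold. The Tpi1 call was lost without Ets1-deleted replicate 1 (0.25, adjusted p = 0.222), control replicate 1 (0.41, 0.0679) or control replicate 2 (0.34, 0.155), with the array floor subtracted (0.38, 0.104) and with no filter on dim genes (0.0561). The Pgk1 call was lost without any 1 array, at 0.27 to 0.38 and adjusted p between 0.0814 and 0.299 in limma, and with the array floor subtracted (0.33, 0.121).

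Eno2, the enolase isoform known from neurons, read 172 and 188 in the Ets1-deleted arrays and 108 and 106 in the controls, a log2 difference of 0.75 ± 0.11 (1.68-fold, limma adjusted p = 0.000333). These controls lie just above the dim limit, where intensities level off, and with the array floor subtracted the difference was 1.28. Eno3, the muscle isoform and the dimmest member, read 96.2 and 97.3 in the Ets1-deleted arrays and 106 and 115 in the controls (-0.19 ± 0.11, adjusted p = 0.233). None of 4 bright housekeeping steps passed the threshold: Gapdh differed by 0.18, Pgam1 by 0.24, Pkm by 0.25 and Aldoa by 0.10, with limma's adjusted p between 0.137 and 0.589. With the mean over probe sets Gapdh passed as higher (0.24, limma adjusted p = 0.0429). Gapdh is measured here by the array maker's own control probe sets, which gave 0.18 for the 3′ end, 0.26 for the middle and 0.28 for the 5′ end of the transcript. As a sign of RNA quality, their log2 ratio of 3′ over 5′ was 0.68 and 0.59 in the Ets1-deleted arrays and 0.75 and 0.72 in the controls. The same ratio for Actb was -0.06 and -0.02 in the Ets1-deleted arrays and -0.06 and -0.27 in the controls. The part of RNA quality in the differences was not tested. Aldoc, the brain aldolase, differed by -0.11 (95% interval -0.35 to 0.13).

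**Figure D2:**
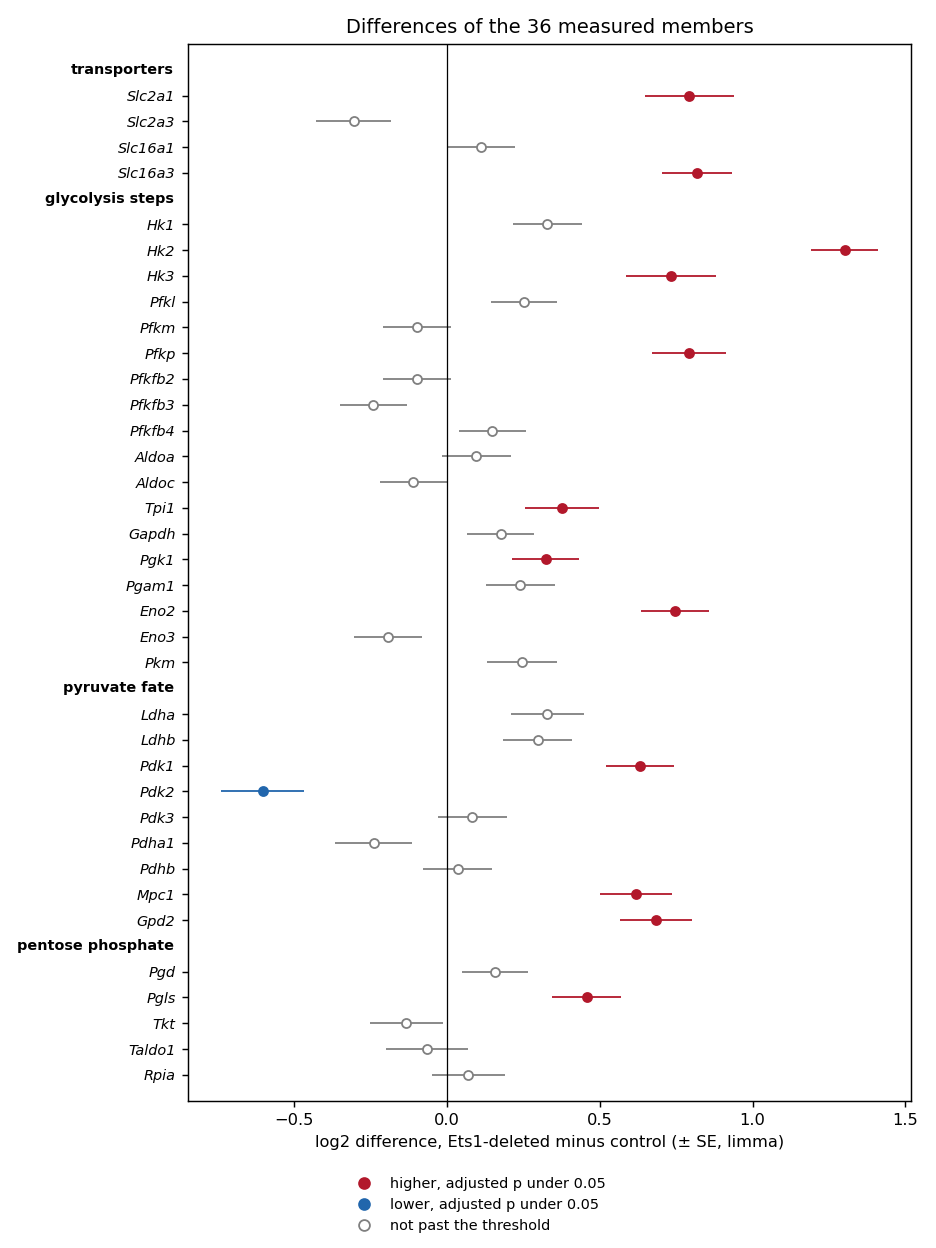
Log2 difference, Ets1-deleted minus control, of the 36 measured members with its SE from limma, grouped by branch. Filled points passed an adjusted p of 0.05 (12 higher in red, 1 lower in blue) and open points did not; the differences run from -0.60 for Pdk2 to 1.30 for Hk2.

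Of 9 measured genes that set the fate of pyruvate or carry electrons from the cytosol, 3 rose and 1 fell. Gpd2, 1 of the 3, is of the second kind. Over all genes 13.9% were higher and 12.8% lower, so the share that fell is near that of all genes. At an unadjusted p of 0.05, 5 were higher and 1 lower (limma), and the median difference was 0.30. The kinase gene Pdk1, whose product shuts pyruvate dehydrogenase, read 500.0 and 554 in the Ets1-deleted arrays and 338 and 342 in the controls (0.63 ± 0.11, 1.55-fold, limma adjusted p = 0.00122). Its 3 bright probe sets gave 0.44 to 0.73. Pdk2, a kinase of the same enzyme, was the member that fell, with 92.3 and 89.3 in the Ets1-deleted arrays and 158 and 119.8 in the controls (-0.60 ± 0.14, limma adjusted p = 0.00602). The Pdk2 control arrays differed widely, and without control replicate 1 the difference was -0.40 and the call was lost (adjusted p = 0.0779). Both Ets1-deleted values were under the dim limit and the gene entered the test through its controls. The Pdk2 call therefore carries no weight of its own, and its size is uncertain. With the array floor subtracted the difference was -1.22 (2.32-fold lower, against 1.52-fold as deposited). Pdk3 differed by 0.08 (95% interval -0.16 to 0.33), with overlapping groups.

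The subunits of pyruvate dehydrogenase did not pass the threshold. Pdha1, which carries the site the kinases phosphorylate, read 698 and 840.0 in the Ets1-deleted arrays and 850.4 and 961 in the controls (-0.24 ± 0.13, limma adjusted p = 0.192), and Pdhb differed by 0.04. Within each array, the log2 ratio of Pdk1 to Pdha1 was -0.48 and -0.60 in the Ets1-deleted arrays and -1.33 and -1.49 in the controls, without overlap. Mpc1, a subunit of the carrier that brings pyruvate into mitochondria, read 846 and 751 in the Ets1-deleted arrays and 496 and 543 in the controls (0.62 ± 0.12, 1.54-fold, limma adjusted p = 0.00187). Gpd2, the mitochondrial enzyme of the glycerol phosphate shuttle, which feeds cytosolic electrons into respiration, read 727 and 855 in the Ets1-deleted arrays and 492 and 489 in the controls. Its difference was 0.68 ± 0.12 (limma, adjusted p = 0.000989), and its 3 bright probe sets gave 0.59 to 0.74.

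Lactate dehydrogenase, which turns pyruvate into lactate, stayed just short of the threshold. Ldha read 5573 and 4789.8 in the Ets1-deleted arrays and 4291 and 3939 in the controls, a difference of 0.33 ± 0.12 (limma, adjusted p = 0.0612). The call depended on the setting: limma's adjusted p was 0.0498 with repeated quantile normalization, 0.042 with a variance trend and 0.0369 with the mean over probe sets. Ldha has 1 probe set, so the last setting left its difference at 0.33 and moved its p only through the other genes. Without Ets1-deleted replicate 2 the difference was 0.44 (adjusted p = 0.0274). Ldhb, the isoform that favours pyruvate, read 192 and 172 in the Ets1-deleted arrays and 151 and 144 in the controls (0.30 ± 0.11, adjusted p = 0.0736). Its 4 probe sets gave 0.30 to 0.56 and the brightest of them had the smallest difference. The mean over probe sets passed (0.40, limma adjusted p = 0.0113). The within-array log2 ratio of Ldhb to Ldha was -4.86 and -4.80 in the Ets1-deleted arrays and -4.83 and -4.77 in the controls, with overlapping groups.

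**Figure D3:**
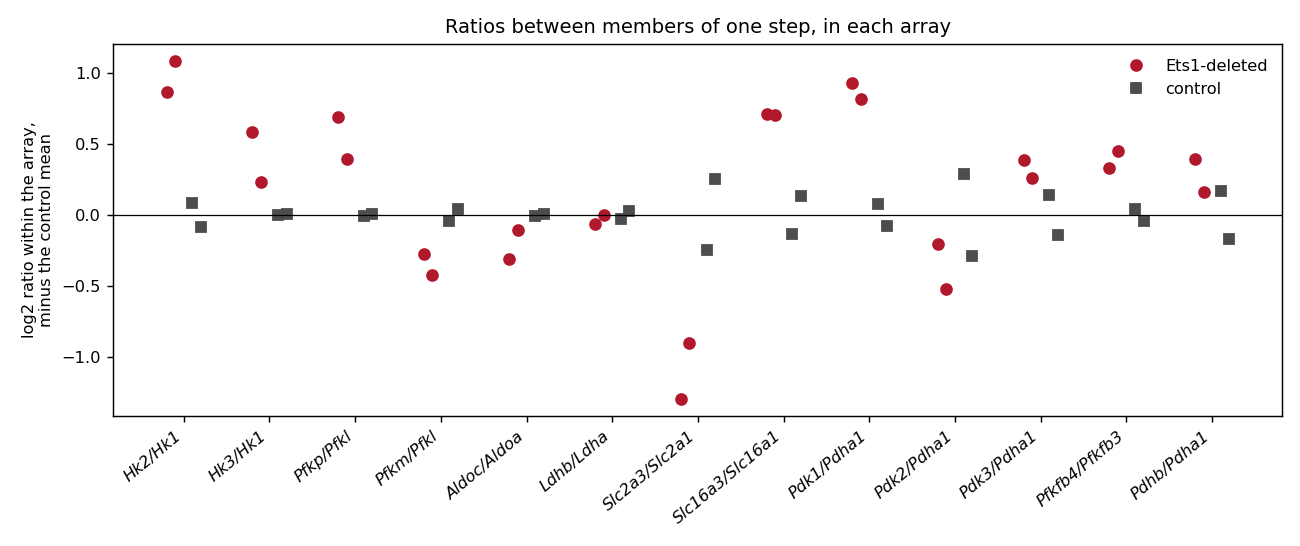
Within-array log2 ratio between 2 members, minus the mean of that ratio in the controls, for Ets1-deleted arrays (red circles) and control arrays (grey squares). The shift is 0.97 for Hk2 over Hk1, 0.71 for Slc16a3 over Slc16a1, -1.10 for Slc2a3 over Slc2a1 and -0.03 for Ldhb over Ldha, where the groups overlap.

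In the pentose phosphate branch, 1 of 5 measured enzymes rose and 0 fell, against 13.9% higher and 12.8% lower over all genes. The counts were the same 1 and 0 at an unadjusted p of 0.05 (limma), and the median difference was 0.07. Pgls, the lactonase of the oxidative part, read 683 and 662 in the Ets1-deleted arrays and 461 and 519 in the controls (0.46 ± 0.11, 1.37-fold, limma adjusted p = 0.0103). That call was lost without control replicate 1 (0.37, adjusted p = 0.108). Pgd, the next oxidative enzyme and a source of NADPH, read 3307 and 3203 in the Ets1-deleted arrays and 2925 and 2916 in the controls (0.16 ± 0.11, adjusted p = 0.328), and its other 3 probe sets gave 0.00 to 0.09. In the non-oxidative part, which exchanges carbon with glycolysis, Tkt differed by -0.13 (95% interval -0.39 to 0.13), Taldo1 by -0.06 (-0.36 to 0.23) and Rpia by 0.07 (-0.19 to 0.33). The groups overlapped for all 3 of these genes.

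Where members had several probe sets, these mostly agreed on direction. Of 79 probe sets with 1 symbol among the members, 73 reached the dim limit. For the 7 called members with more than 1 bright probe set, all bright probe sets had the same sign, and for 6 of the 7 each of them passed when every probe set was tested as a row of its own (limma); Pgk1 was the exception. Among members that did not pass, the bright probe sets of Slc2a3, Hk1, Pfkl and Tkt differed in sign.

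**Figure D4:**
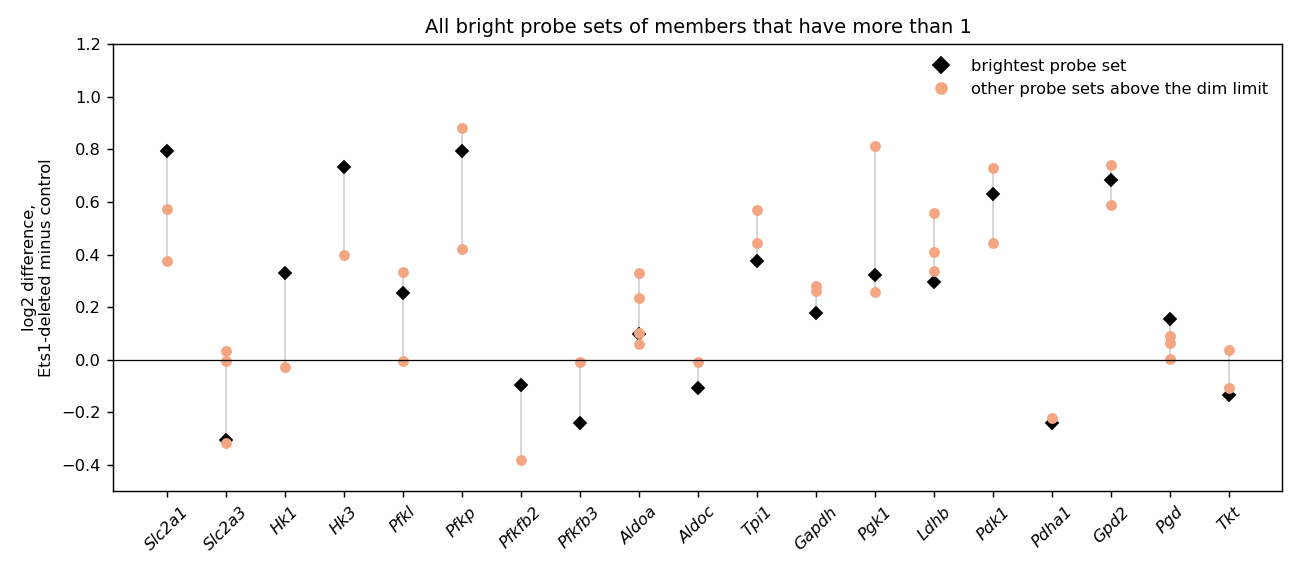
Log2 difference, Ets1-deleted minus control, of each bright probe set for the 19 members that have more than 1, with the brightest as a black diamond and the others as orange circles. All probe sets of Slc2a1 (0.37 to 0.79), Pfkp (0.42 to 0.88), Pdk1 (0.44 to 0.73) and Gpd2 (0.59 to 0.74) lie above 0, while those of Hk1 (-0.03 to 0.33) lie on both sides.

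A list of 64 further genes of sugar metabolism was measured beside the members, and 50 of them were tested, 47 of which reached the dim limit in both controls. Of the 50, 10 rose and 6 fell, with a median log2 difference of 0.03, against the 13.9% and 12.8% of all genes. Of 10 tested genes of glycogen metabolism and relatives of Pgm1 (Pgm2, Pgm2l1 and Pgm3), 4 rose and 1 fell, and the median difference was 0.09. Those that rose were the synthase gene Gys1 by 0.71 ± 0.12, Pgm1, whose enzyme shifts the phosphate of glucose, by 0.63 ± 0.11, the branching enzyme gene Gbe1 by 0.50 ± 0.12 and Gyg, whose protein primes the chain, by 0.46 ± 0.12. Pygb, a phosphorylase that breaks glycogen down, fell by 0.78 on the log2 scale, with 445 and 482 in the Ets1-deleted arrays and 755 and 840.3 in the controls (limma, adjusted p = 0.000301). The other 5 did not pass: Ugp2, which makes the glucose donor of glycogen, differed by 0.01, the phosphorylase gene Pygl by 0.17, and Pgm2, Pgm2l1 and Pgm3 by -0.26, -0.19 and 0.00. With the mean over probe sets Pgm1 differed by 0.30, and with the array floor subtracted Gbe1 differed by 0.85. The Gbe1 call was lost without Ets1-deleted replicate 1 (0.38, adjusted p = 0.0516), and the Gyg call without that array (0.37, 0.0734) or control replicate 2 (0.37, 0.114).

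Of 6 further carriers tested 1 rose and 1 fell, and of 11 further genes of pyruvate fate 2 rose and 0 fell (at an unadjusted p of 0.05, 3 were higher and 1 lower; limma), against 13.9% higher and 12.8% lower over all genes. Slc16a7, the gene of the monocarboxylate carrier MCT2, read 128 and 161 in the Ets1-deleted arrays and 72.3 and 67.0 in the controls. Both controls lay under the dim limit and the gene entered the test through its Ets1-deleted values, so its call carries no weight of its own and the size is uncertain: 1.04 as deposited and 2.43 with the array floor subtracted. Slc2a9, which carries urate, fell by 1.09 on the log2 scale, with 138 and 135 in the Ets1-deleted arrays and 286 and 296 in the controls (adjusted p = 1.29e-05), although its other probe set gave -0.40. Adpgk, a kinase that phosphorylates glucose with ADP, rose by 0.73 ± 0.12. Pdp1, the phosphatase that reverses the action of the kinases on pyruvate dehydrogenase, rose by 0.93 ± 0.12, with 216 and 188 in the Ets1-deleted arrays and 105 and 107 in the controls (limma, adjusted p = 7.94e-05), and by 1.54 with the array floor subtracted. Both Ets1-deleted arrays lay above both controls for Pdp1, as they did for the kinase gene Pdk1. Gpt2, which links pyruvate to alanine, rose by 0.41 ± 0.11; the call was lost without Ets1-deleted replicate 2 (0.35, adjusted p = 0.0699), control replicate 1 (0.41, 0.0651) or control replicate 2 (0.41, 0.0734). Gpd1l, a relative of the cytosolic glycerol phosphate enzyme, differed by -0.48 ± 0.13 (adjusted p = 0.0147), and its call was lost without control replicate 1 (-0.32, adjusted p = 0.191).

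Around the pentose phosphate branch, the transketolase relative Tktl1 read 264 and 269 in the Ets1-deleted arrays and 509 and 500.2 in the controls, a difference of -0.92 ± 0.11 (limma, adjusted p = 5.02e-05). Its 3 probe sets gave -0.92 to -0.83. Prps2, which turns ribose phosphate into the precursor of nucleotides, differed by -0.35 ± 0.11 (adjusted p = 0.0305), a call that was lost without any 1 array (-0.32 to -0.39, adjusted p from 0.0661 to 0.187) or with the array floor subtracted (0.0741). Rbks, the ribokinase, differed by 0.34 ± 0.12 (adjusted p = 0.0463) and lost its call without Ets1-deleted replicate 2 (0.25, 0.209), control replicate 1 (0.30, 0.227) or control replicate 2 (0.39, 0.0907), and with no filter on dim genes (0.0545). With the array floor subtracted Rbks differed by 0.53. Of 8 tested regulators, 1 rose and 1 fell (12.5% each), near the 13.9% higher and 12.8% lower of all genes. Hif1a, the oxygen-regulated subunit of the hypoxia-inducible factor, read 3557 and 3810.2 in the Ets1-deleted arrays and 1899.5 and 2018 in the controls (0.91 ± 0.11, limma adjusted p = 6.88e-05). Its 4 probe sets gave 0.26 to 0.91, and their mean 0.56. Its partner gene Arnt differed by -0.32 ± 0.11 (adjusted p = 0.0445); 1 of its 4 bright probe sets went the other way (0.13), and the call was lost without any 1 array (-0.30 to -0.35, adjusted p from 0.0806 to 0.231). It was also lost with median centring (adjusted p = 0.054), the array floor subtracted (0.0923), the mean over probe sets (-0.17, 0.131) and a variance trend (0.0512) in limma. Myc, a driver of glycolytic genes in lymphocytes, read 1912 and 1549.9 in the Ets1-deleted arrays and 1993 and 1500.1 in the controls, a difference of -0.01. Myc thus showed overlapping groups with a wide spread inside each.

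**Figure D5:**
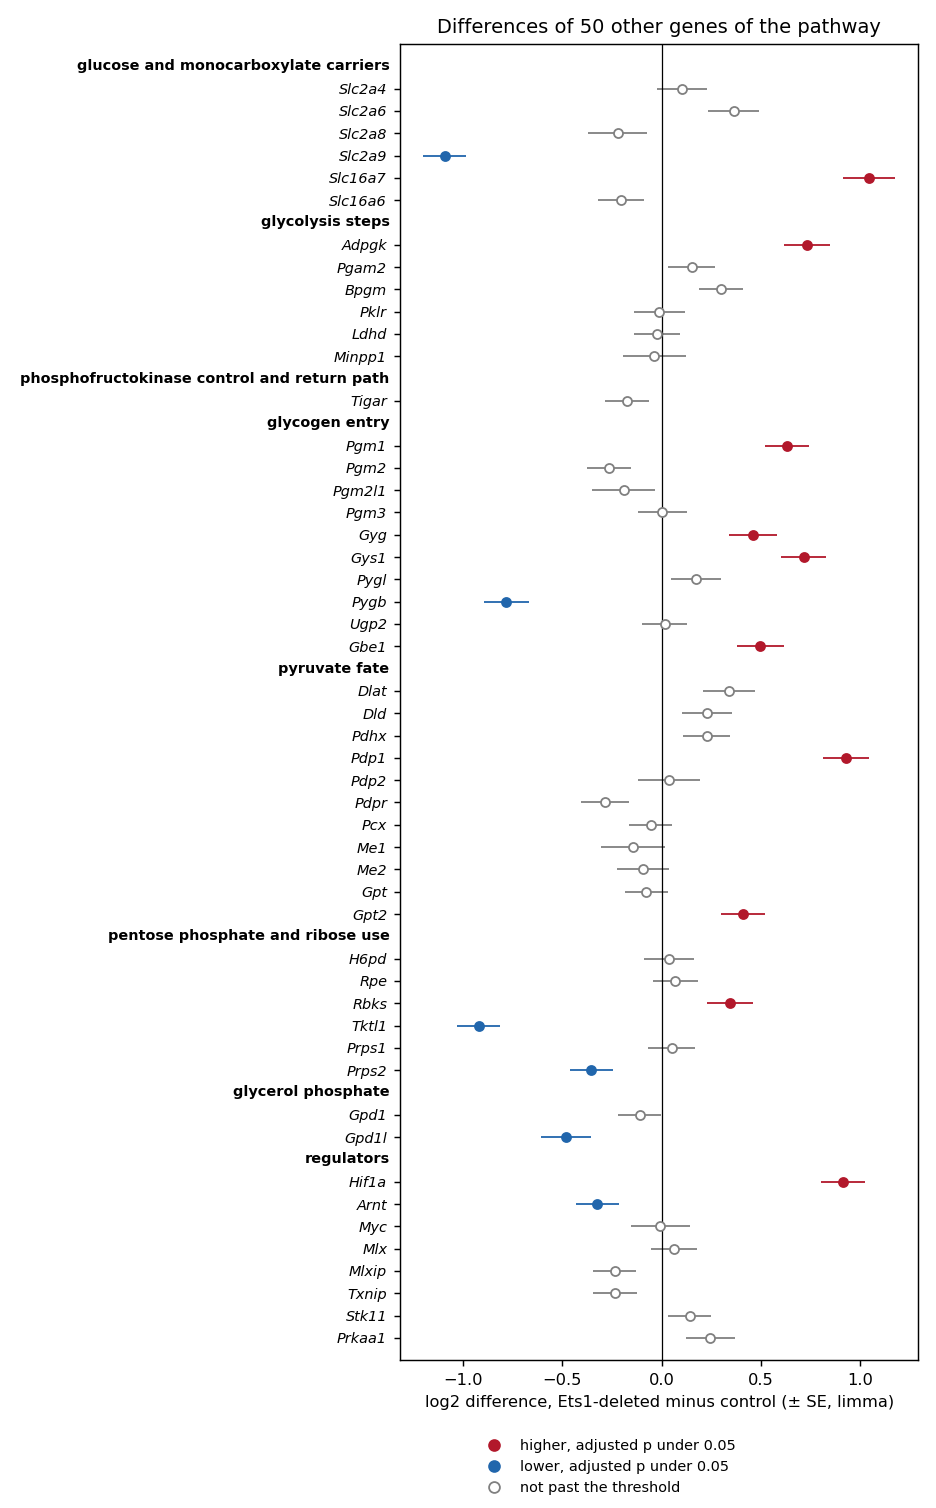
Log2 difference, Ets1-deleted minus control, with its SE from limma for the 50 tested genes of sugar metabolism outside the members, grouped by role. Filled points passed an adjusted p of 0.05 (10 higher in red, 6 lower in blue); the differences run from -1.09 for Slc2a9 to 1.04 for Slc16a7, whose controls lie under the dim limit.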

How the data were processed

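RNA of sorted ILC2 was hybridised to Affymetrix arrays, 2 Ets1-deleted and 2 control. The authors deposited an intensity per probe set from RMA, per the submitters' processing notes, which name no version. Values run from 39.47 to 23291 and were read as linear, an inference since RMA often gives log2. Array medians were 96.5 to 97.7, so no further normalization was applied to the log2 values taken from the deposited intensity. Genes were named through the platform annotation, and the gene IDs of all 36 measured members gave the same symbols in the RefSeq table. A gene was tested where its mean reached the 50th percentile of all probe sets (97.4). Values near that limit level off, which understates folds.

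Differences (Ets1-deleted minus control) were tested with limma 3.58.1 in R 4.3.3 (lmFit, eBayes; two-sided), p-values were adjusted by Benjamini-Hochberg over 10873 genes, there were 2 residual degrees of freedom, and the code was tested on simulated data. With 2 arrays a group a two-sided exact permutation test cannot go below p = 0.333, and nothing says that arrays come from separate animals, so the p-values reflect no more than the spread among these 4 samples, and that spread may be technical. The array number limits the precision. Members and lists were chosen with earlier results of these data known. Named were all members, Ets1, and further genes of the pathway past the threshold. Myc and Gata3 were singled out after their values were seen. Alternatives to the scaling, filter, probe set rule, variance, threshold and each array are given in the closing section. Promoters were printed for the 4 called members of largest difference.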

Additional observations from a re-analysis of the deposited data

Results flagged for a closer look

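A probe set that no comparison used, because it names both Gapdh and its pseudogene Gapdh-ps15, was higher in the Ets1-deleted arrays. It read 184 and 165 in them and 144 and 128 in the controls, a log2 difference of 0.36 (limma with 1 row per probe set, adjusted p = 0.0466). The bright probe set that names Gapdh and 4 other loci differed by 0.16.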

How the results depend on the processing

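Alternatives were tried on the scaling, the filter, the probe set rule, the variance, the threshold and each array. Those on the filter, the variance, the threshold and a block by replicate number reuse the main log2 difference. They could not reverse a direction, and the looser threshold of 0.1 could not lose a call. The values below count them all the same. Of the 192 values of the 13 called members under alternatives, 167 kept direction and call, 25 kept direction and lost the call, and 0 reversed. Eno2, Gpd2, Hk2, Hk3, Mpc1, Pdk1, Pfkp, Slc16a3 and Slc2a1 kept their calls in every alternative that tested them except each gene's ordinary variance. With ordinary variance and its 2 residual degrees of freedom, 0 members were called higher and 0 lower, 0 further pathway genes were called higher and 0 lower, and 13 of all genes passed. At an unadjusted p of 0.05 that fit gave 12 members higher and 1 lower, 10 further genes higher and 6 lower, and 1349 higher and 1258 lower over all genes. The stricter filter, at the 70th percentile, left Pdk2, Eno2 and Hk3 untested, so that 0 members were called lower, and 6 further genes were called higher. At an adjusted p of 0.1, 2 members were called lower. Leaving out 1 array in turn, which assumes that the lone array varies like the other group, gave 9 to 12 members higher and 3 to 5 further genes lower, the 3 without control replicate 1. Without that array the member called lower was Slc2a3 and not Pdk2. Leaving out 1 array also turned signs. Taldo1 ran from -0.24 to 0.11 and was positive without Ets1-deleted replicate 1 (0.034) or control replicate 2. Rpia ran from -0.023 to 0.16 and was negative without the same arrays (-0.020 without control replicate 2). Pdhb ran from -0.044 to 0.12 and was negative without control replicate 2. The replicate block gave 14 members higher, 1 lower and 3252 genes in all, with Ldha (limma adjusted p = 0.0355) and Hk1 (0.0449) past the threshold. Nothing says that equal replicate numbers pair the samples, and with 2 pairs the deviations of same-numbered arrays correlated at 0.167. Where no reason is given here, the cause was not tested. Signal over background limits Eno3, Pdk2 and Eno2, the dimmest members.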
